A study of Mus musculus with 48 samples.

Results

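Splenic monocytes from mice labelled IL1RL1-/- were compared with those from wild-type (WT) mice by RNA sequencing. The comparison was taken from the sample labels and rested on 8 libraries, 4 of each genotype, among the 24 RNA libraries and 48 samples of the series. All mice were 10-week-old Balb/c males, the IL1RL1-/- allele being carried on that background, and each library came from a single mouse. No treatment was named for either group. Monocytes were sorted as Ly6Glo, CD11bhi and F4/80- cells, and the same mice gave pre-red pulp macrophages (pre-RPMs, F4/80lo) and red pulp macrophages (RPMs, F4/80hi). For flow cytometry counts the study gated splenic monocytes among cells low in CD11c, Ly6G, side scatter and the NK cell antigen NK1.1. Such a gate would remove most NK cells and conventional dendritic cells, and whether it was applied in this sort was not tested. The allele is carried by every cell of the animal, so differences within the monocytes and differences in the cells around them cannot be told apart.

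Il1rl1 encodes ST2, the receptor chain that binds the alarmin IL-33 and signals with the co-receptor Il1rap through the adaptor Myd88 to IRAK kinases, NF-kB and MAP kinases. ST2 is best known on mast cells, basophils, type 2 innate lymphoid cells and regulatory T cells. Blood monocytes that enter the spleen can become RPMs, the macrophages that clear old erythrocytes and recycle their iron, in a program that depends on the transcription factor Spic. The comparison therefore addresses whether monocytes already differ between the genotypes before they acquire F4/80.

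The libraries held between 3562367 and 6559454 counts assigned to genes. Between 25.2% and 35.4% of these fell on Gm42418, a locus that overlaps ribosomal RNA sequence, and 6.30% to 10.2% on mitochondrially encoded genes. Values are given as CPM, a gene's count as a share of its library's total, with that total scaled by the trimmed mean of M-values (TMM). Where a count of 0 is reported, a floor of 3 counts corresponded to between 0.449 and 0.738 CPM in these libraries, counting error only.

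The targeted gene went against its label. Il1rl1 (ENSMUSG00000026069, GRCm38 chr1:40429570-40465415, + strand) was at 4.28, 3.79, 2.75 and 1.95 CPM in the WT libraries, from 28, 19, 12 and 13 counts. In the libraries labelled IL1RL1-/- it was at 12.5, 15.3, 15.3 and 13.2 CPM, from 51, 73, 71 and 64 counts. Every library labelled IL1RL1-/- was above every WT library, and the fold change was 4.37 with a 95% interval of 3.05 to 6.28 (log2 fold change 2.13 ± 0.23, SE, n = 4 and 4, edgeR quasi-likelihood test, adjusted p = 0.00882). The counts were summed over all exons of the gene, so they do not show which exons the reads covered, and the deleted exons are not given in the sources used here. Whether the transcripts can encode a receptor was not tested. For this reason the animals are called libraries labelled IL1RL1-/- below, and each direction given is relative to that label.

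The sorted cells carried monocyte transcripts, with a varying share of others. All 12 monocyte markers had counts, led per kilobase by Lyz2, the lysozyme of myeloid cells, and their summed level was 1989, 1359, 5528 and 3816 CPM in the WT libraries against 2173, 3473, 4980 and 4316 CPM in the libraries labelled IL1RL1-/-. The 14 markers of NK cells, led by the granzyme Gzma, ran the other way, at 2597, 2993, 965 and 1739 CPM against 2558, 1853, 834 and 1289 CPM. WT libraries 1 and 2 and library 1 labelled IL1RL1-/- had the most NK cell and the least monocyte transcript, so the split ran through both genotypes. In these 3 the NK cell total was above the monocyte total. The first principal component took 42.1% of the variance of all genes and placed these same 3 libraries between 26.1 and 35.5 and the remaining 5 between -33.9 and 5.04. Neutrophil markers summed to 2762, 1512, 2398 and 942 CPM in the WT libraries against 1181, 2346, 2193 and 2328 CPM, above the monocyte total in WT libraries 1 and 2. The lists differ in their members, so their totals are not shares of cells. Markers of red pulp macrophages summed to only 42.8 to 114 CPM over the 8 libraries.

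The libraries did not group by genotype on the first component. The second took 16.9% and placed the WT libraries between 0.62 and 29.7, libraries 1 to 3 labelled IL1RL1-/- between -23.3 and -11.0 and library 4 at 10.7. Library profiles correlated across genes with a median r of 0.951 within WT, 0.954 within the libraries labelled IL1RL1-/- and 0.9498 between them, and of 0.960 between libraries of the same mouse number, and the closest library was of the same genotype for 3 of the 8. The closest library to WT 3 and to WT 4 was library 4 labelled IL1RL1-/-. These correlations are over genes that share each library's depth and cell mixture, and describe the libraries only.

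**Figure D1:**
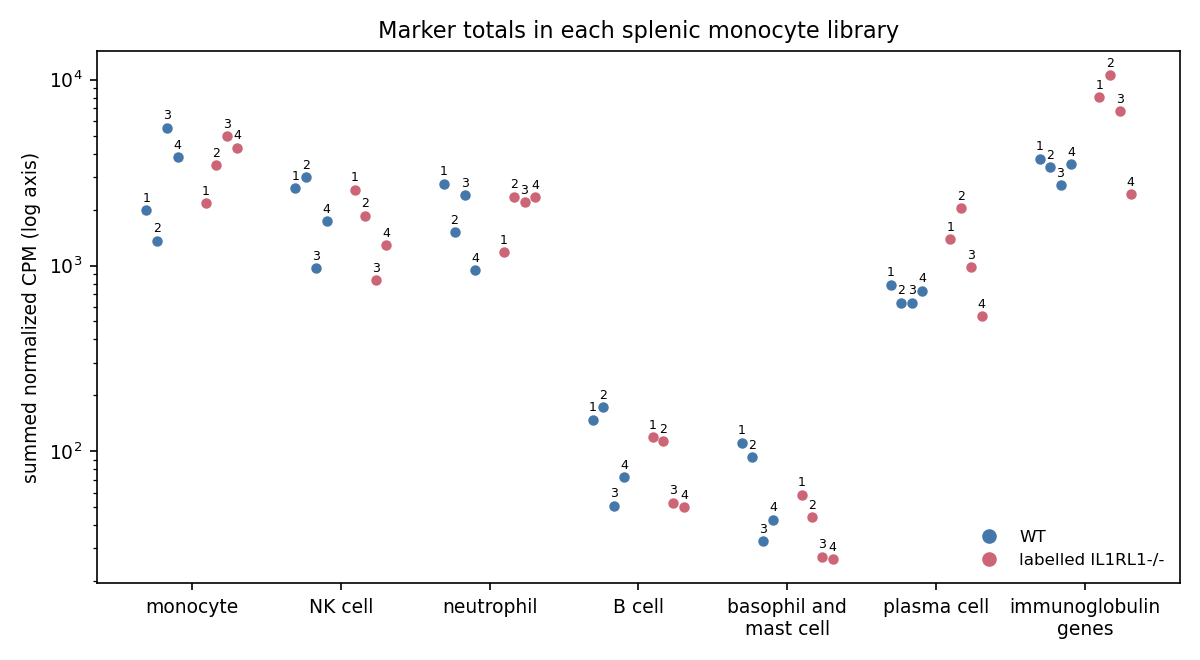
Summed normalized CPM (log axis) of marker lists in each of the 8 monocyte libraries, where every point is a library and its number is the mouse number. WT 1, WT 2 and library 1 labelled IL1RL1-/- are the lowest in monocyte markers and the highest in NK cell markers, and libraries 1 to 3 labelled IL1RL1-/- are the highest in plasma cell and immunoglobulin transcripts.

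Of 11405 genes tested, 7 passed an adjusted p of 0.05 (0.0614%), 5 of them higher (0.0438%) and 2 lower (0.0175%) in the libraries labelled IL1RL1-/-. Higher were Il1rl1, the homeobox gene Cux2, the meiotic gene Hormad1 and 2 small nuclear RNA genes, Gm25813 and Gm25360, and lower were Golph3l and the centromeric histone chaperone Hjurp. Where no other fit is named, a gene is said to have passed by this edgeR fit. In all 7 the groups did not overlap, as they did not in 267 of the genes tested (2.34%). At an unadjusted p under 0.05 there were 410 genes (3.59%), 214 higher and 196 lower. Over all genes tested 5580 log2 fold changes were positive and 5825 negative. Leaving out library 2 labelled IL1RL1-/- left 1 call, Cux2, and leaving out WT library 1 left 4. With the mouse number as a block, 27 genes passed (0.237%), 19 higher (0.167%) and 8 lower (0.0701%), among them all 7.

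**Figure D2:**
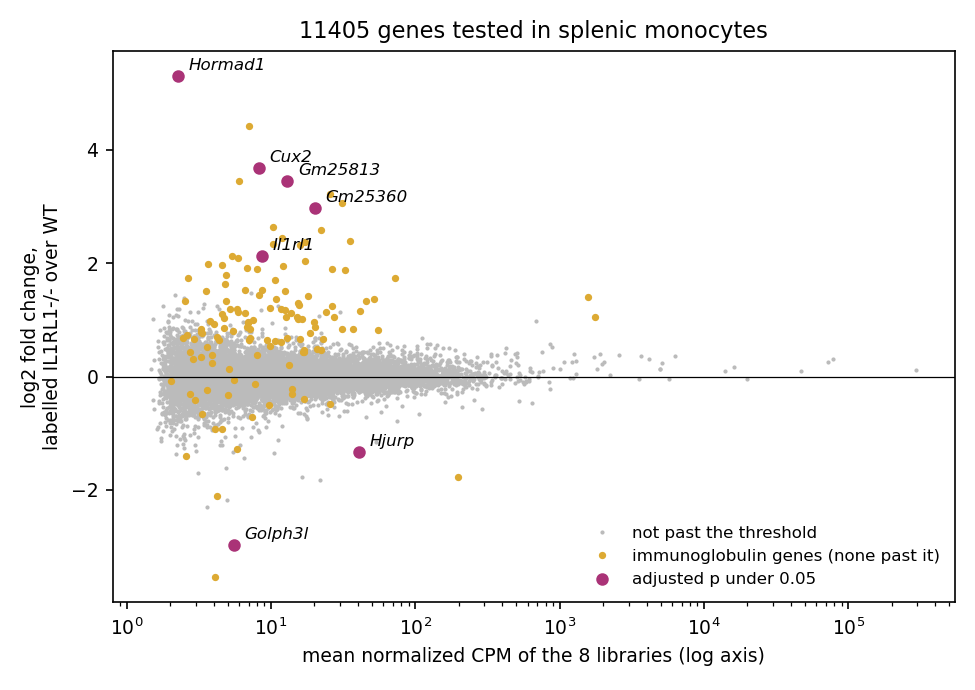
Log2 fold change of the libraries labelled IL1RL1-/- over WT against mean normalized CPM (log axis) for each gene tested in monocytes. The 7 named genes passed an adjusted p of 0.05, and the 126 immunoglobulin genes tested, none of which passed in that edgeR fit, lie mostly above 0.

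Cux2 encodes a CUT-homeodomain transcription factor best known from neurons of the upper cortical layers. It was at 0.764, 1.40, 1.84 and 0.899 CPM in the WT libraries, from 5 to 8 counts, and at 15.99, 18.1, 11.4 and 16.1 CPM in the libraries labelled IL1RL1-/-, from 53 to 86 counts. The groups were far apart, with a fold change of 12.8 and a 95% interval of 8.40 to 19.6 (log2 fold change 3.68 ± 0.27, SE, edgeR adjusted p = 0.00123). Its call held without each library in turn. The gene spans chr5:121856366-122050102 on the - strand. Its nearest tested neighbours did not pass the test, Pheta1 lying 1734 bases away on the other strand with a log2 fold change of 0.48 ± 0.41 (SE) and Ppp1cc with 0.10 ± 0.19.

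Hormad1 and Golph3l are neighbours on chromosome 3 that moved in opposite directions. Hormad1 (chr3:95559677-95587671, + strand) encodes a HORMA domain protein of the meiotic chromosome axis, normally restricted to germ cells. It had 0, 0, 0 and 2 counts in the WT libraries and 14, 32, 17 and 19 counts in the libraries labelled IL1RL1-/-, where it stood at 3.44, 6.72, 3.66 and 3.91 CPM. The pooled counts, 82 against 2, gave a ratio of 50.5 after scaling, with an exact counting interval of 13.6 to 424, and the edgeR adjusted p was 0.0159. The ratio rests on 2 counts in WT library 4, and the fitted log2 fold change ran from 4.90 to 7.45 when a library was left out. Golph3l (chr3:95588934-95619247, + strand), a relative of the Golgi protein GOLPH3, begins 1263 bases after the end of Hormad1. It fell from 13.9, 6.59, 8.03 and 10.9 CPM in the WT libraries to 0.492, 2.10, 1.08 and 1.23 CPM, which was 7.88-fold lower (log2 fold change -2.98 ± 0.38, SE, edgeR adjusted p = 0.0219). The flanking genes on either side did not pass the test. Ctss, the lysosomal protease cathepsin S, had a log2 fold change of 0.03 ± 0.40 and Ensa, a regulator of a mitotic phosphatase, of -0.07 ± 0.12. Both calls were sensitive to single libraries, Hormad1 passing in 3 and Golph3l in 2 of the 8 fits that left out a library, while the sign was kept in each.

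Hjurp loads the histone variant CENP-A at centromeres and is used as a cell cycle gene. It stood at 62.5, 52.3, 54.1 and 64.0 CPM in the WT libraries and at 28.3, 22.7, 18.7 and 23.0 CPM in the libraries labelled IL1RL1-/-. In CPM it was the most abundant of the 7 in the WT libraries, and it fell 2.53-fold without overlap (log2 fold change -1.34 ± 0.14, SE, edgeR adjusted p = 0.00882). Of the 34 cell cycle genes of the list, 24 were tested, Hjurp was the only one that passed, and the median log2 fold change was -0.03 beside -0.01 for all genes. Its CENP-A partner Cenpa had a log2 fold change of 0.25 ± 0.22 and the proliferation gene Top2a of 0.25 ± 0.18. Plk1, a mitotic kinase, had the list's most negative value, -1.82 ± 0.92 (adjusted p = 0.997, and 0.0460 with the mouse number as a block), and ranged from 8.49 to 92.9 CPM among WT libraries alone. Hjurp lies at chr1:88262471-88277633, and neither neighbour passed, Ugt1a7c with 0.42 ± 0.41 and Arl4c with 0.13 ± 0.18.

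**Figure D3:**
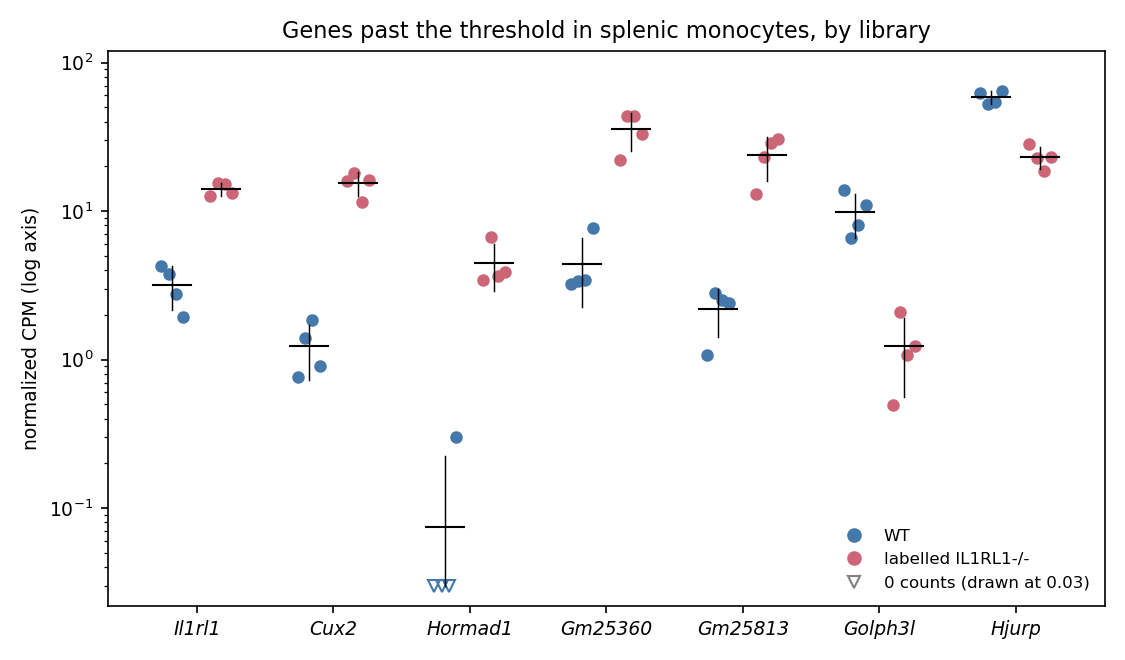
Normalized CPM (log axis) of the 7 genes past the threshold in each library, with the mean and SD of 4 libraries as black lines and libraries with 0 counts drawn as triangles at 0.03. In each gene the groups do not overlap, and Hormad1 has 0 counts in 3 of the 4 WT libraries.

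The 2 small nuclear RNA genes are copies of one another. Gm25360, Gm25813 and a further copy, Gm25939, are each 191 bases long and differ from one another at 3 or 4 positions, 97.9% to 98.4% identity, so reads of 50 bases can be split between them and their counts are uncertain. Their sequences are shown because the copies took different directions. They were read from the RefSeq GRCm38.p6 assembly at the positions the count files give, in the sense of the RNA, with capitals at the 5 positions where the 3 copies are not all alike.
Gm25360: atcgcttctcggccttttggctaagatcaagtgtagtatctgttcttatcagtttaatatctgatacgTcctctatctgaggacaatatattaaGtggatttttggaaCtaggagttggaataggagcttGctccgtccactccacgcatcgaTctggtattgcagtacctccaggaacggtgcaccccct
Gm25813: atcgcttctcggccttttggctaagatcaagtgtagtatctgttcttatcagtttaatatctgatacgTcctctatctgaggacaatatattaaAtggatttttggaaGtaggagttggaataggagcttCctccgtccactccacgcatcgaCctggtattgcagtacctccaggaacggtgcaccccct
Gm25939: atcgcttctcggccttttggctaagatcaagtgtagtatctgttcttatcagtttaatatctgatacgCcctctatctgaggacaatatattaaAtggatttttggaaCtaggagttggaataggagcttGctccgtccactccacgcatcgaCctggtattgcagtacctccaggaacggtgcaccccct

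Gm25360 (chr1:72226240-72226430, + strand) was at 3.21, 3.39, 3.44 and 7.64 CPM in the WT libraries and at 22.1, 43.5, 43.9 and 33.1 CPM in the libraries labelled IL1RL1-/-. The increase was 7.85-fold (log2 fold change 2.97 ± 0.33, SE, edgeR adjusted p = 0.00882). Gm25813 (chr8:52336915-52337105, - strand) was at 1.07, 2.796, 2.52 and 2.40 CPM against 13.04, 23.1, 28.6 and 30.5 CPM, an 11.0-fold increase (log2 fold change 3.45 ± 0.34, SE, edgeR adjusted p = 0.00870). Gm25939 (chr1:72255008-72255198, + strand) ran the other way, at 12.7, 23.0, 28.4 and 37.0 CPM against 4.67, 7.35, 7.11 and 10.5 CPM. It did not pass the test (log2 fold change -1.76 ± 0.34, SE, edgeR adjusted p = 0.311) but did with the mouse number as a block (adjusted p = 0.000876). It also passed by DESeq2 (adjusted p = 0.00263) and by edgeR with the summed NK cell marker level as a covariate (0.0236). Summed over the 3 copies the level was 17.0, 29.2, 34.4 and 47.0 CPM in the WT libraries 1 to 4 and 39.9, 74.0, 79.7 and 74.1 CPM in libraries 1 to 4 labelled IL1RL1-/-. The groups overlapped, and the library labelled IL1RL1-/- was the higher one at each of the 4 mouse numbers. In the annotation 16 small nuclear RNA genes were at least 80% identical to Gm25360, and these 3 were the ones with at least 100 counts over the 8 libraries.

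The genes around Il1rl1 were then examined, because it lies in a cluster of IL-1 receptor genes. Il1rl2, the IL-36 receptor, was at 2.29, 3.20, 1.38 and 1.05 CPM in the WT libraries and at 4.92, 4.62, 4.52 and 5.35 CPM in the libraries labelled IL1RL1-/-. The groups did not overlap, but the difference did not pass the test (log2 fold change 1.29 ± 0.32, SE, edgeR adjusted p = 0.775). Il18r1, the IL-18 receptor that NK cells carry at high level, begins 137 bases after the end of Il1rl1 and was at 129, 130, 36.9 and 79.9 CPM against 90.3, 61.4, 22.4 and 46.7 CPM. Its groups overlapped and its adjusted p was 0.997, and the fit blocked on mouse number gave an adjusted p of 0.0232 (log2 fold change -0.78 in both fits). Like the NK cell markers, Il18r1 was lowest in the libraries numbered 3. With the mean log2 CPM of those markers as a covariate, a fit added after the data were seen, its log2 fold change was -0.36 (adjusted p = 0.538). The cause of its difference was not tested. Il1r1 and Il1r2 were under 3 CPM in all 8 libraries and were not tested. Within 5 Mb of Il1rl1, 52 of 200 genes were tested and Il1rl1 alone passed, with a median log2 fold change of -0.04. Chromosome 1 as a whole held 715 of the genes tested (6.27%) and 3 of the 7 that passed, Il1rl1, Gm25360 and Hjurp.

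**Figure D4:**
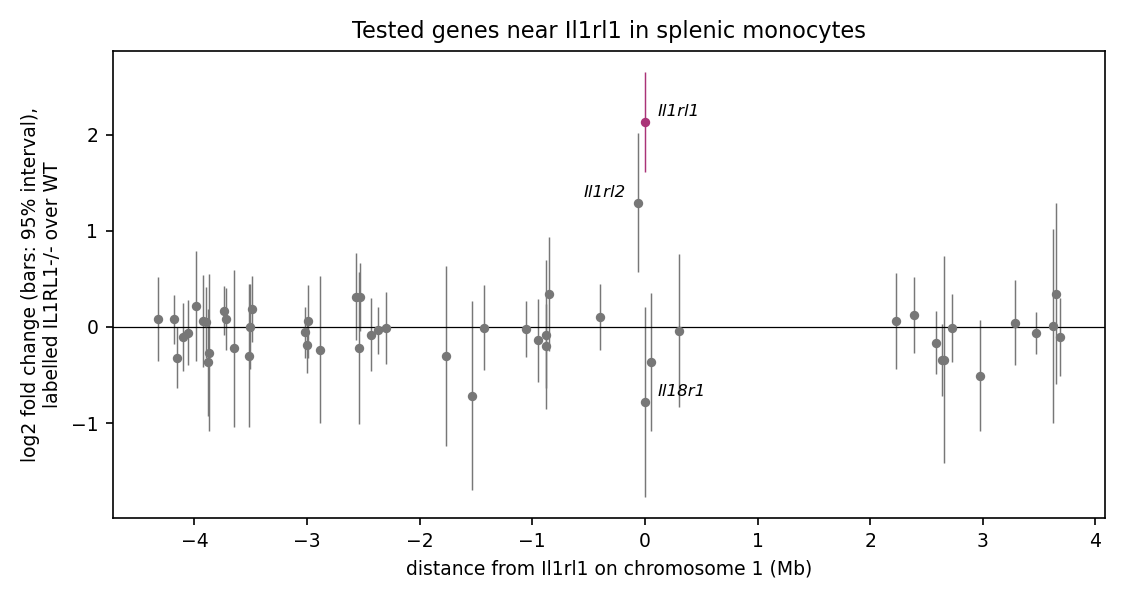
Log2 fold change with its 95% interval for the 52 genes tested within 5 Mb of Il1rl1, against distance from Il1rl1. Il1rl1 passed the threshold, Il1rl2 is higher with an adjusted p of 0.775, and the other genes have values between -0.78 and 0.35.

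Other genes did not pass the test although their groups did not overlap, and are given by their values. Mfap1a, a splicing factor gene with a close paralogue, measured 3.88 ± 0.63 CPM in WT against 10.7 ± 2.1 CPM in the libraries labelled IL1RL1-/- (SD, n = 4 each), with an adjusted p of 0.0545 by edgeR and 0.0199 with the mouse number as a block. Its paralogue Mfap1b had a log2 fold change of 1.25 ± 0.29, and reads of 1 may be counted for the other. Lama1, a basement membrane laminin, had 1.24 ± 0.23 (adjusted p = 0.253 by edgeR). On the negative side Eya1, a developmental phosphatase and transcriptional co-activator, was at 5.99 ± 2.4 against 1.19 ± 0.31 CPM, with an adjusted p of 0.0903 by edgeR and 0.0115 with the block. Fam78b had a log2 fold change of -1.33 ± 0.22 (adjusted p = 0.112), the sodium-proton exchanger Slc9a9 of -0.69 ± 0.13 (0.311), the histone gene Hist4h4 of -0.72 ± 0.16 (0.662) and Fam135a of -1.06 ± 0.26 (0.775). By DESeq2 5 of these passed, Mfap1a (adjusted p = 0.000302), Lama1 (0.00615), Eya1 (0.00173), Fam78b (0.0120) and Slc9a9 (0.0499), while Hist4h4 (0.159) and Fam135a (0.999) did not. Eya1, Fam78b and Fam135a are on chromosome 1. The uncharacterized 6820402A03Rik, also on chromosome 1, had 17, 13, 5 and 7 counts in the WT libraries and 0 in each library labelled IL1RL1-/-, at least 11.4-fold lower against a floor of 3 counts over the group. It was too low for the edgeR filter and had an adjusted p of 0.00667 by DESeq2, as had AC117239.2 (55 counts in the WT libraries against 4, DESeq2 adjusted p = 0.0493) and the light chain gene Igkv4-90 (0.00173).

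The genes that the study follows in RPM development were not past the test in monocytes, or too low to test. Spic measured 2.58 ± 1.7 CPM in WT against 2.54 ± 0.62 CPM in the libraries labelled IL1RL1-/- (SD, n = 4 each), with a 95% interval for the fold change of 0.510 to 1.99. Its heme-sensitive repressor Bach1 was at 89.2 ± 41 and 91.4 ± 27 CPM, and heme oxygenase Hmox1 at 8.18 ± 4.4 and 8.78 ± 3.4 CPM. Treml4, a receptor of splenic myeloid cells, was at 34.8 ± 17 and 32.3 ± 15 CPM, with an interval of 0.507 to 1.71. None of these passed the test (edgeR adjusted p between 0.997 and 0.999), which does not show that they are equal. The adhesion molecule Vcam1 stayed under 3 CPM in each library and was not tested. The receptor's adaptor Myd88 was at 35.3 ± 10 and 37.1 ± 8.5 CPM, with a 95% interval of 0.743 to 1.48.

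Among GATA factors, Gata2 was at 26.1, 19.6, 6.19 and 8.69 CPM in the WT libraries and at 10.6, 9.67, 5.17 and 3.09 CPM in the libraries labelled IL1RL1-/-. The groups overlapped, and the log2 fold change was -1.11 ± 0.49 (SE, edgeR adjusted p = 0.997, unadjusted p = 0.0461). At every mouse number the library labelled IL1RL1-/- was the lower one, and with that number as a block the edgeR adjusted p was 0.110. With the NK cell marker level as a covariate the log2 fold change was -0.65 (adjusted p = 0.885). Gata2 is a factor of basophils and mast cells and is itself on the list of genes of those cells. Of the 9 tested genes of that list 8, Gata2 among them, had negative values, with a median log2 fold change of -1.08. The list held 13 genes and, Gata2 included, summed to 111, 93.3, 32.8 and 42.8 CPM in the WT libraries against 58.5, 44.3, 27.1 and 26.3 CPM. Mcpt8, a basophil protease, was the most abundant per kilobase, and none of the list was at 0 in all libraries. The part of basophils in the Gata2 values was not tested, and in bulk samples fewer cells of a type and less RNA per cell cannot be told apart. Gata3 had a log2 fold change of -0.16 ± 0.43 and Ets1 of -0.22 ± 0.34, and Gata1 was under 1 CPM and not tested.

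In the gene lists for the pathway no gene other than Il1rl1 passed. Of the 24 tested genes of IL-33 reception and signalling, Il1rl1 alone passed, and the median was -0.05. The co-receptor Il1rap was at a log2 fold change of -0.36 ± 0.18 (adjusted p = 0.997) and the kinase Irak4 at -0.23 ± 0.15. No member passed among the 25 ERK and immediate early genes tested (median 0.05, Fos highest in that list at 0.75 ± 0.29), the 17 NF-kB targets (median -0.11), the 11 type 2 response genes (median 0.07), the 10 GATA factors and partners (median -0.15), the 12 heat shock genes (median 0.09), the 22 pattern recognition receptors (median 0.12) and the 23 chemokine receptors and adhesion genes (median -0.11). Of the NF-kB targets 13 had negative and 4 positive values. Bcl3 (-0.55 ± 0.16, groups apart) and Cd83 (-0.68 ± 0.29) were lower at an unadjusted p under 0.05 by edgeR, as were 1.72% of all genes tested. The 23 genes of red pulp macrophages and iron recycling had 11 positive and 12 negative values and a median of -0.01, with the ferritin heavy chain Fth1, the most abundant per kilobase, at -0.16 ± 0.12.

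Monocyte subset genes did not pass either. The 24 classical genes had 19 positive values and a median of 0.23, including the chemokine receptor Ccr2 at 0.36 ± 0.32 and Ly6c2 at 0.36 ± 0.20, and the 24 nonclassical genes had a median of -0.01. Irf8, a factor of monocyte and dendritic cell lineages, was at -0.30 ± 0.12. Several classical genes are also monocyte markers, whose total was lowest in 2 WT libraries and in library 1 labelled IL1RL1-/-. A further 30 interferon-stimulated genes were tested, 26 with positive values and a median of 0.28, but none at an unadjusted p under 0.05.

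MHC class II genes had mostly negative values. Of 12 genes tested none passed and 11 had negative values, beside 5825 of all 11405 genes tested. The median log2 fold change was -0.39 beside -0.01 for all genes. H2-Ab1, a class II beta chain, averaged 345 CPM in WT against 235 CPM in the libraries labelled IL1RL1-/- (log2 fold change -0.56 ± 0.20, SE), and the invariant chain Cd74 at 742 and 543 CPM (-0.46 ± 0.18). Both had an edgeR adjusted p of 0.997. Their unadjusted p was under 0.05, as was that of H2-Aa and H2-Oa, beside 1.72% of all genes tested that were lower at that level. The transactivator Ciita was at -0.18 ± 0.18. Markers of B cells, which also carry class II, had 10 of 12 negative values (median -0.49) and summed to 148, 173, 50.9 and 72.8 CPM in the WT libraries against 119, 114, 53.0 and 50.2 CPM, led per kilobase by Cd79b. Conventional dendritic cell markers had 8 of 9 negative values (median -0.25) and summed to 322 ± 59 and 335 ± 91 CPM (SD, n = 4 each), of which the positive member Sirpa, also carried by other myeloid cells, made up 174 and 212 CPM. The part of these cells in the class II values was not tested.

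Immunoglobulin transcripts had mostly positive values and varied widely from library to library. Of 427 immunoglobulin genes, 126 were tested, 105 had positive values, the median log2 fold change was 0.95 and none passed by edgeR, although 54 were higher and 4 lower at an unadjusted p under 0.05, beside 1.88% and 1.72% of all genes tested. Of the 27 genes that passed with the mouse number as a block, 14 were immunoglobulin genes, 13 of them higher, while such genes were 126 of the 11405 tested. DESeq2 called 26 of 25775 genes (0.101%), and 11 of these were immunoglobulin genes, 10 of them higher. Among them were Ighg2b (adjusted p = 0.00468), Ighv6-3 (0.0120), Igkv6-14 (1.8e-06) and Ighv13-2 (0.0288). The summed level of the immunoglobulin genes was 3761, 3370, 2706 and 3518 CPM in the WT libraries and 8040, 10606, 6746 and 2416 CPM in the libraries labelled IL1RL1-/-. Library 4 labelled IL1RL1-/- was thus the lowest of all 8, and the higher mean came from libraries 1 to 3. Variable genes differed from library to library far more than other genes did, with a median coefficient of variation within groups of 60.8% over 103 V genes against 18.2% over 10168 protein-coding genes. Ighv13-2 reached at most 1.80 CPM in WT and lay between 6.58 and 29.2 CPM (edgeR adjusted p = 0.230, 0.0232 with the block), and Igkv6-14 reached at most 1.61 CPM and lay between 4.74 and 18.2 CPM (0.0870, 0.00851 with the block). Igkv3-7 was at 4.96 ± 4.0 and 46.6 ± 35 CPM (0.632, 0.000652 with the block), Ighv6-3 at 6.45 ± 1.9 and 18.5 ± 7.4 CPM (0.400, 0.0232 with the block) and the constant region Ighg2b at 25.6 ± 4.7 and 64.8 ± 25 CPM (0.311, 0.0722 with the block). V genes share sequence, so reads can be split between them.

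Plasma cell markers followed the same libraries. Their list of 11 genes, led per kilobase by the joining chain Jchain and with none at 0, summed to 789, 631, 631 and 732 CPM in the WT libraries and to 1391, 2040, 976 and 536 CPM in the libraries labelled IL1RL1-/-. No member passed, 10 of 11 values were positive and the median was 0.59. Jchain itself was at 459 and 913 CPM (log2 fold change 0.98 ± 0.40, SE), Mzb1, a chaperone of antibody assembly, at 18.7 and 41.6 CPM (1.14 ± 0.38) and the plasma cell factor Irf4 at 44.6 and 67.5 CPM (0.59 ± 0.19). The plasma cell and immunoglobulin totals were both highest in library 2 and both lowest in library 4 labelled IL1RL1-/-. The part of plasma cells in the immunoglobulin values was not tested.

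The other marker lists held no called gene. The 13 NK cell markers tested were all negative, between -0.61 and -0.10, with a median of -0.37 and group totals of 2073 ± 905 and 1633 ± 744 CPM (SD, n = 4 each), which overlapped. Neutrophil markers, led by S100a9, summed to 1904 ± 828 and 2012 ± 558 CPM, T cell markers to 202 ± 90 and 169 ± 86 CPM, and type 2 innate lymphoid markers to 58.0 ± 24 and 48.3 ± 19 CPM. Markers of eosinophils, plasmacytoid dendritic cells, erythroid cells, platelets and stromal cells had group means under 131 CPM each and overlapped. With total counts in place of TMM the log2 ratio of a typical gene moved by -0.14, and the neutrophil, eosinophil and both dendritic cell totals then turned from slightly above to slightly below WT.

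The same mice gave pre-RPMs and RPMs, which allowed the genotype difference to be compared between cell types. In pre-RPMs 59 of 10698 genes passed (0.552%) and in RPMs 26 of 11150 (0.233%). Of the 59, 57 were tested in monocytes, where 14 had an unadjusted p under 0.05, beside 3.59% of all genes tested, and 7 passed. Their median absolute log2 fold change was 0.34 in monocytes and 1.25 in pre-RPMs, where they had been selected as calls. Of the 26 from RPMs, 19 were tested in monocytes, 10 had an unadjusted p under 0.05 and 6 passed, with a median of 0.81 in monocytes and 1.89 in RPMs. The sign in monocytes was that of the other cell type for 54 of the 57 and for 13 of the 19. Those totals include the 7 and the 6 that passed in monocytes, and the agreement of signs over all genes tested is not given here. The cell types came from the same mice, so these counts are not independent of one another. The 6 were those of the monocyte calls other than Il1rl1. Cux2 was at 1.53 ± 0.21 and 14.4 ± 4.5 CPM in pre-RPMs and at 1.49 ± 0.46 and 13.3 ± 1.3 CPM in RPMs (SD, n = 4 each), and its difference in either cell type could not be told from that in monocytes (interaction log2 -0.48 ± 0.45 and -0.57 ± 0.38, SE). Hjurp fell in all 3 cell types, the log2 fold change being -1.34 for monocytes, -1.84 for pre-RPMs and -1.89 for RPMs. The interaction for Golph3l with RPMs was 1.15 ± 0.45 (adjusted p = 0.924), and that for Gm25813 with RPMs 0.11 ± 0.56.

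No gene among 11960 passed the test of a genotype difference that differs between monocytes and pre-RPMs (0%), with 454 at an unadjusted p under 0.05 by edgeR and 531 by DESeq2, which also called none. Hjurp had an interaction of -0.51 ± 0.17 (unadjusted p = 0.00888), Eya1, at 0 counts in each pre-RPM library labelled IL1RL1-/-, an unadjusted p of 0.0128, and Il1rl2, with 0 to 3 counts in WT pre-RPMs, one of 0.0223. Gata2 had an unadjusted p of 0.0280. In pre-RPMs it measured 12.4 ± 8.0 CPM in WT against 1.45 ± 0.71 CPM in the libraries labelled IL1RL1-/-, a log2 fold change of -3.01 ± 0.45 (edgeR adjusted p = 0.00328), and the interaction with monocytes was -1.90 ± 0.79 (adjusted p = 1.00). Il18r1 likewise was at 12.1 and 2.52 CPM in pre-RPMs (log2 fold change -2.24 ± 0.27), with an interaction of -1.47 ± 0.66.

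Between monocytes and RPMs 4 of 12592 genes passed the interaction test (0.0318%). Il1rl1 was at 14.1 ± 1.4 CPM in monocytes labelled IL1RL1-/- and at 0.826 ± 0.48 CPM in RPMs with that label, against 3.19 ± 1.0 and 1.94 ± 0.80 CPM in WT, an interaction of -3.28 ± 0.51 (log2, SE, edgeR adjusted p = 0.0269, and 0.0580 with each mouse as a block). In RPMs Il1rl1 had 1 to 13 counts a library and was too low to be tested there on its own. Il1r1, the IL-1 receptor, fell in RPMs from 14.1 ± 3.6 CPM in WT to 4.94 ± 0.62 CPM (log2 fold change -1.53 ± 0.21, edgeR adjusted p = 0.00501). In monocytes it had 0 to 5 counts a library and was too low to test, so its interaction (adjusted p = 0.0382) rests on monocyte values at the floor and does not show that the cell types differ. Snx9, a membrane-remodelling sorting nexin, was at 25.3 ± 3.2 and 20.1 ± 6.1 CPM in monocytes and at 23.0 ± 2.9 and 65.9 ± 2.4 CPM in RPMs (interaction 1.85 ± 0.24, adjusted p = 0.00819). Nrp2, a semaphorin co-receptor, was at 11.2 ± 2.8 and 6.83 ± 2.0 CPM in monocytes and at 2.71 ± 0.79 and 10.6 ± 2.4 CPM in RPMs (interaction 2.66 ± 0.37, adjusted p = 0.00819). In Snx9 and Nrp2 the RPM groups did not overlap while neither monocyte difference passed the test. Leaving out a mouse left between 0 calls, without WT mouse 3, and 6. With each mouse as a block 21 genes passed, 15 of them immunoglobulin genes, beside 128 such genes among the 12592 tested. All 15 had a more negative difference in RPMs, Igkv3-7 (adjusted p = 0.00901), Ighv6-3 (0.0447) and Ighg2c (0.0447) among them. Of the 15, 10 were too low to be tested in RPMs alone and 7 had at most 3 counts in each RPM library labelled IL1RL1-/-, so their interactions rest on RPM values near the floor. The plasma cell genes Mzb1 (0.0153), Sdc1 (0.0329) and Jchain (0.0447) also passed in that fit, and none of these 3 plasma cell genes or the 3 immunoglobulin genes named did by edgeR without the block. By DESeq2 Mzb1 (adjusted p = 0.0285), Sdc1 (0.0244), Igkv3-7 (0.0285), Ighv6-3 (0.00736) and Ighg2c (0.00413) passed, and Jchain did not.

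**Figure D5:**
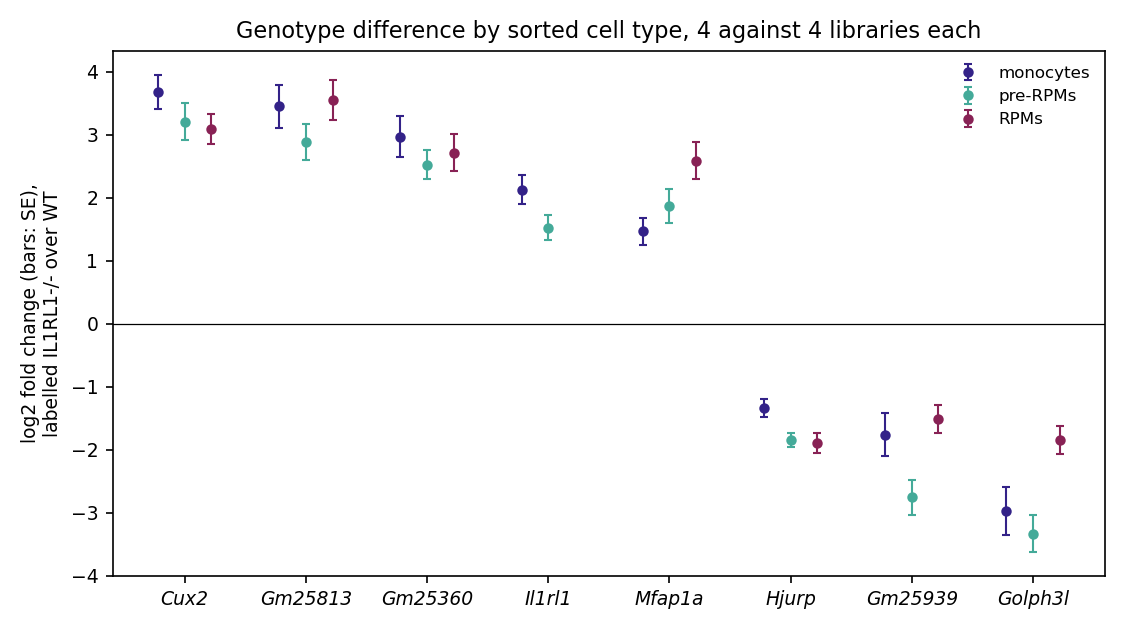
Log2 fold change of the libraries labelled IL1RL1-/- over WT, with its SE, in monocytes, pre-RPMs and RPMs, for 6 of the genes that passed in monocytes and for Mfap1a and Gm25939. Each gene keeps its sign in each cell type in which it was tested, Il1rl1 has no RPM value because it was too low there to be tested, and Hormad1 is not drawn because WT was at or near 0 counts.

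The precision of the fold changes varied with expression level. The 95% interval of the fold change lay within 2-fold either way for 9053 of the 11405 genes (79.4%) and within 1.5-fold for 5028 (44.1%). For genes under 3 CPM the median interval reached 1.78-fold either way, and for genes of 30 to 100 CPM 1.23-fold. These intervals are not adjusted for the number of genes, and the smallest fold change that passed was the 2.53-fold of Hjurp.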

How the data were processed

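RNA of sorted monocytes was made into stranded total RNA libraries (Takara SMARTer pico v2) and sequenced as paired 50-base reads. The authors trimmed with cutadapt, aligned with STAR (2.5.1 in the submitters' processing notes) and, per the file headers, counted fragments per gene name with featureCounts 1.6.2, strand-specific, over exons of Ensembl GRCm38.95. The deposited values are raw counts. Replicates are single mice, not pooled. From the counts, edgeR 4.0.16 (R 4.3.3) was used for the main test: filterByExpr, TMM, glmQLFit and glmQLFTest on the 8 libraries without covariates, Benjamini-Hochberg adjustment, threshold 0.05. DESeq2 1.42.0, other filters, RLE scaling, blocks and left-out libraries were alternatives. The main fit was also run on simulated counts. These were drawn independently for each gene, so the run does not cover the varying cell mixture of the libraries. CPM used TMM factors over 24 libraries. SE came from the fold change and its F value.

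Same-numbered mice of the 2 genotypes shared an i5 index and are different animals. Their libraries deviated together (r = 0.264, 0.253, 0.508 and 0.144, mean 0.292), so the block was given where it changed a call. The 12 pairs of unlike number had a lower mean r of -0.097 but ranged from -0.501 to 0.510. The highest r of all was thus between unlike numbers, WT 2 and library 1 labelled IL1RL1-/-, and 4 of 8 libraries correlated best with their own number. Whether the number marks a true pairing was not tested. With the i7 index as a covariate the same 7 genes passed.

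Genes named were the calls and their neighbours, uncalled genes of smallest p with groups apart, genes the study follows, list extremes and genes called only with the block or DESeq2. The members, lists and tests were chosen with earlier results of these data known. Chromatin accessibility samples were not analysed here.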

Additional observations from a re-analysis of the deposited data

Results flagged for a closer look

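In 9 of 118 groups of 4 libraries a single library stood apart by Dixon's test, which chance alone does in about 1 of 20. Gm25360 reached 7.64 CPM in WT library 4, Ighv13-2 1.80 CPM in the same library and Plk1 92.9 CPM in WT library 1. Hormad1 had its only WT counts in library 4 (0.300 CPM) and was highest at 6.72 CPM in library 2 labelled IL1RL1-/-. Fam78b was at 2.10 CPM in that library, the lowest. Among the libraries labelled IL1RL1-/- the neutrophil marker total was lowest at 1181 CPM in library 1. Among WT libraries the erythroid marker total was highest at 38.8 CPM in library 3 and the TMM factor at 1.38 in library 1.

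Between RPMs and monocytes 4 genes passed the interaction term of edgeR. The log2 difference in RPMs minus that in monocytes was -3.57 for Il1r1, -3.28 for Il1rl1, 2.66 for Nrp2 and 1.85 for Snx9. Il1r1 had 0 to 5 counts in the monocyte libraries, too low to test there, so its value does not show that the cell types differ. Il1rl1 had 1 to 13 in the RPM libraries, and its adjusted p was 0.0580 with each mouse as a block.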

How the results depend on the processing

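The 7 calls between genotypes became 26 with DESeq2, 139 with every gene of at least 1 count, 3 with at least 10 counts in every library, 16 with all 24 libraries in a single fit, 27 with the mouse number as a block and 21 with the level of NK cell markers as a covariate, and were 1 to 8 when a library was left out. All 7 were among the calls of the block, DESeq2, the 24-library fit and the NK covariate. Without the 3 libraries highest in NK cell markers, 6 genes passed, 5 of them among the 7, and Hormad1 and Golph3l did not. Both NK alternatives were added after the data were seen. The 0 calls of the pre-RPM interaction became 78 with every gene of at least 1 count and stayed at 0 when a mouse was left out. The 4 calls of the RPM interaction became 38 with DESeq2, 21 with each mouse as a block, 165 with every gene of at least 1 count and 1 with at least 10 counts in every library, and were 0 without WT mouse 3 and up to 6 otherwise. In the genotype comparison within monocytes, the mouse number as a block changed no call of a named gene beyond those given beside their values. The cause of these shifts was not tested. Of the 7 calls, the sign was the same in each alternative in which the gene was tested; Cux2, Gm25813, Hormad1 and Golph3l were not tested with at least 10 counts in every library. With the NK covariate the uncalled Il18r1 was at -0.36, Gata2 at -0.65 and Treml4 at -0.47. Signs turned for uncalled genes, Il18rap among them at -0.36 in the fit without covariates. With the NK covariate Ctss was at -0.27, Gata3 at 0.22, Ets1 at 0.074, Spic at -0.27, Bach1 at -0.21, Hmox1 at -0.20 and Myd88 at -0.12. Without the 3 libraries Ctss was at -0.26, Ets1 at 0.030, Spic at -0.28, Bach1 at -0.27, Hmox1 at -0.30, Myd88 at -0.077 and Il18rap at 0.047, and Spic was at -0.018 with every gene of at least 1 count. Leaving out 1 library spanned -0.016 to 0.22 for Ppp1cc, -0.21 to 0.40 for Ctss, -0.60 to 0.074 for Gata3, -0.27 to 0.44 for Spic, -0.19 to 0.29 for Bach1, -0.20 to 0.40 for Hmox1, -0.36 to 0.26 for Treml4 and -0.058 to 0.28 for Myd88. Genes under 3 CPM had the widest intervals.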

Other observations

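The immunoglobulin constant region genes did not all lean one way. Ighm, the IgM heavy chain that naive B cells carry, was at 392, 418, 101 and 303 CPM in the WT libraries and at 144, 88.3, 66.5 and 57.8 CPM in the libraries labelled IL1RL1-/- (log2 fold change -1.78 ± 0.42, SE, edgeR adjusted p = 0.775, and 0.0238 with the mouse number as a block). Igha, the IgA heavy chain, was at 816, 761, 847 and 973 CPM against 2697, 3283, 2423 and 714 CPM (1.41 ± 0.37, adjusted p = 0.837, and 0.429 with the block). The WT libraries lay close together for Igha, and 3 of the 4 libraries labelled IL1RL1-/- were above all of them while library 4 was below. For Ighm WT library 3 overlapped the other group. Ighg2c was at 17.8 ± 3.9 and 37.2 ± 18 CPM and Ighg1 at 19.3 ± 5.4 and 14.8 ± 4.1 CPM (SD, n = 4 each), neither of them past the test. Of 11 constant region genes tested none passed by edgeR without a block or covariate, while Ighg2b passed by DESeq2 (adjusted p = 0.00468). With the NK cell marker level as a covariate in edgeR, Ighg2b, which was higher (adjusted p = 0.0455), and Ighm, which was lower (0.0262), both passed. At an unadjusted p under 0.05, 5 were higher and 1 lower, beside 1.88% and 1.72% of all genes tested, and the median log2 fold change was 0.62.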
